A study of Mus musculus with 12 samples.

Results

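Gse1, Gins2, Fignl2 and Egln1 are the 4 mouse genes that lie at the 3 regions with the strongest listed loss of 5-hydroxymethylcytosine (5hmC) in Tet-deficient retina. They were chosen on the bACE-seq values themselves, namely the area statistic of each region, which sums the test statistic over its CpGs. The 5hmC levels, differences and ranks given here are therefore a description of the members and carry no test. Members were read as the annotated gene with 5 kb on each side, and every listed region that overlapped such a locus was taken. This gave 4 of 32093 protein-coding and long noncoding genes, 124 of 592906 bACE-seq regions and 182 of 193836 WGBS regions, with 9 regions shared by Gse1 and Gins2 and counted once in these totals.

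The samples were whole retinas of C57 BL/6J mice at postnatal day 21, with 3 libraries per group and assay and 12 libraries in all. The control group (Cre-, genotype label WT) was compared with Tet tcKO, in which Tet1, Tet2 and Tet3 carry loxP alleles that Chx10-Cre-GFP deletes in retinal progenitors. The controls came from separate Cre- breeders of matched age, and each sample pooled the retinas of a pair of animals. The Cre transgene is mosaic, and the paper crossed Cre+ animals with each other to reduce this. Whole-genome bisulfite sequencing (WGBS) reads 5-methylcytosine (5mC) and 5hmC together, and bACE-seq reads 5hmC alone, because an APOBEC deaminase removes the signal of 5mC after bisulfite has protected 5hmC. The lists give 1 mean level per group and region, so neither the spread between the 3 libraries nor the read depth behind a level is known, and no difference could be set against replicate error. In whole retina, fewer cells of a type and less 5hmC per cell cannot be told apart.

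TET enzymes are oxygen- and alpha-ketoglutarate-dependent dioxygenases that oxidise 5mC to 5hmC, a mark that is abundant in neurons and lies mainly in gene bodies and at enhancers, while CpG islands at active start sites usually hold little of it. Gse1 encodes a coiled-coil protein found with the CoREST-HDAC corepressor, which removes acetyl and methyl marks from histones. Gins2 encodes a subunit of GINS, which joins Cdc45 and the Mcm proteins in the replicative helicase. Fignl2 encodes an AAA ATPase of the fidgetin family, whose relatives sever microtubules. Egln1 encodes the prolyl hydroxylase PHD2, which marks HIF alpha subunits for VHL-dependent degradation when oxygen is present.

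The sequences below show what the leading regions of Fignl2 and Egln1 look like at base level. Each is the 300-base window with the most CpGs in its region, free of annotated UTR bases, from RefSeq's copy of GRCm38 (mm10), printed on the strand of the gene (5′ to 3′) with CpGs in capitals. The Fignl2 window (chr15:101053591-101053890, minus strand) is wholly coding, with 60 CpGs against 11.9 per 300 bases over its region and a G+C content of 83.3%. The Egln1 window (chr8:124924594-124924893, minus strand) is intronic and holds 15 CpGs against a mean of 4.69. The third window (chr15:101077623-101077922, minus strand) lies in the Fignl2 intron and holds 19 CpGs, where Tet tcKO had the lower WGBS level.
Fignl2 5hmC loss: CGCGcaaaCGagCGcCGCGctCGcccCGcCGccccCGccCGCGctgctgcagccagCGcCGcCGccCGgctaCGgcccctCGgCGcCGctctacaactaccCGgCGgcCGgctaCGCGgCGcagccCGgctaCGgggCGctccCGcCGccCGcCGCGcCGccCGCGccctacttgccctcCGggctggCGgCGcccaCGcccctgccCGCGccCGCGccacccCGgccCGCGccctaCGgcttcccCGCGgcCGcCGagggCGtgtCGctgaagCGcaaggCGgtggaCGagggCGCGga
Egln1 5hmC loss: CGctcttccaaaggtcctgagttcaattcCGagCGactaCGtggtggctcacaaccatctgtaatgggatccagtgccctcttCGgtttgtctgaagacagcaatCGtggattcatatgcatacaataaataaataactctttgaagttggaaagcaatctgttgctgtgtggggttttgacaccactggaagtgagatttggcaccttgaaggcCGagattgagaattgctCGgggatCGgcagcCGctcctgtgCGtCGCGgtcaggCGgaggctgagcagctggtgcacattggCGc
Fignl2 WGBS loss: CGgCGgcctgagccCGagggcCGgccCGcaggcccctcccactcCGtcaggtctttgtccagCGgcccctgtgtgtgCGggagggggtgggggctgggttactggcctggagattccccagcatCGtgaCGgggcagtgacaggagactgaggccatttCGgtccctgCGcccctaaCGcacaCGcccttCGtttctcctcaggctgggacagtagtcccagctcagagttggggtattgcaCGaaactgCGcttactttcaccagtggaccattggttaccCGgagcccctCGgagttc

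The 3 leading 5hmC losses (listed regions with a lower Tet tcKO mean) were broad stretches that kept about the same share of 5hmC. The region shared by the 3′ ends of Gse1 and Gins2 (chr8:120565108-120583822, 509 CpGs over 18.7 kb) held 24.8% 5hmC in the controls and 6.22% in the knockout. The stretch over the 3′ end of Fignl2 (chr15:101050410-101059619, 365 CpGs over 9.21 kb) went from 16.9% to 4.35%, and the region in the first intron of Egln1 (chr8:124917083-124944154, 423 CpGs over 27.1 kb) from 29.5% to 6.84%. The share kept (Tet tcKO level over Cre- level) was 25.1%, 25.8% and 23.2%, against a median of 22.6% over all 592697 5hmC losses.

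These regions stood out most by their size, and also by their area statistic per CpG. By number of CpGs the Gse1-Gins2 region ranked 1, the Egln1 region 4 and the Fignl2 region 11 of all 5hmC losses, whose median is 8 CpGs. Ranked by the difference in level they stood at 51783, 17446 and 210868, with differences of 18.5, 22.7 and 12.5 percentage points against a median of 10.7. These differences lay above 91.3%, 97.1% and 64.4% of losses. Ranked by area statistic per CpG the regions stood at 1308, 3109 and 459 of 592697, above 99.8%, 99.5% and 99.9% of losses. The regions were chosen on the area statistic, which is the number of CpGs times the area statistic per CpG. High ranks by either thus follow in part from the choice. Across all 5hmC losses the area statistic followed the number of CpGs (Spearman's rho 0.97) more than the difference (rho 0.30). As a sum over CpGs, it rises with their number by construction. These are correlations across regions, which share the same 6 libraries, and are given with no test.

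The choice ended in a near-continuous series. The area statistics of the members' regions were 3784 for Gse1-Gins2, 2979 for Fignl2 and 2902 for Egln1, and the next 3 were 2698, 2678 and 2664. These next regions lay in Gtf2ird1, which encodes a transcription factor, in Rsph14 and Gnaz, the latter a G protein alpha subunit, and in Dctn1, a dynactin subunit. Their 5hmC went from 35.4% to 9.58% at Gtf2ird1, from 26.2% to 6.85% at Rsph14 and Gnaz, and from 26.1% to 6.63% at Dctn1, with 27.1%, 26.1% and 25.4% kept.

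**Figure D1:**
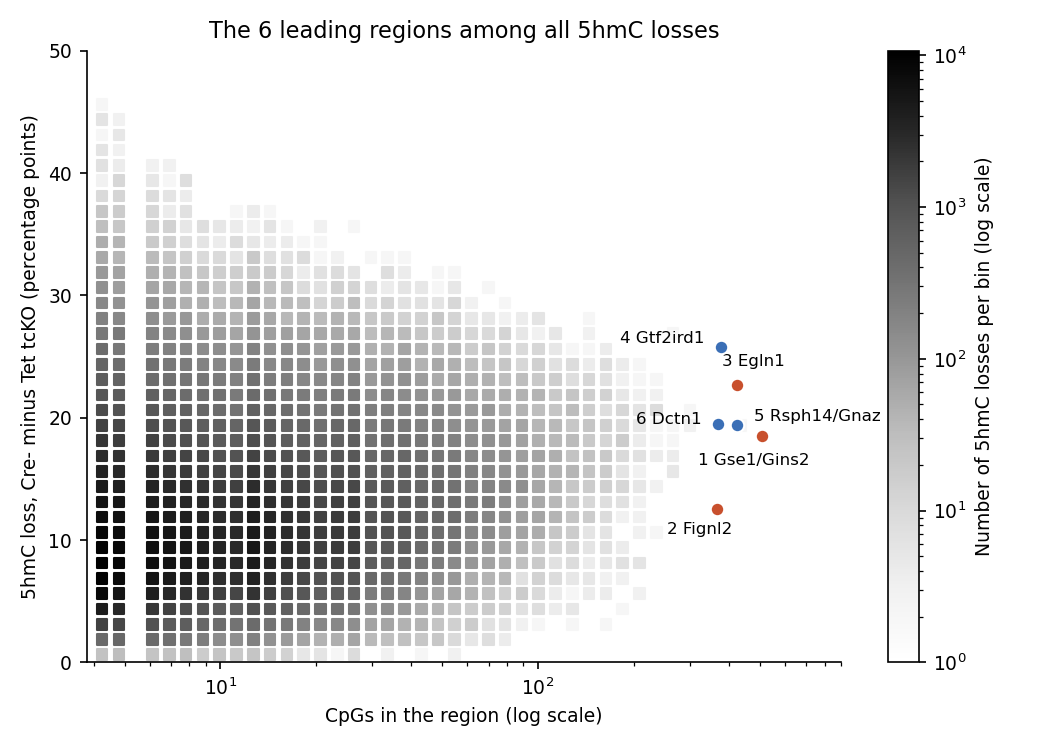
Number of CpGs (x axis, log scale) against 5hmC loss (y axis, Cre- minus Tet tcKO group mean, percentage points) for all 5hmC losses, shown as bins shaded by the number of regions. Red points are the regions of the members and blue points the next 3 by area statistic, all far to the right at 365 to 509 CpGs and spread over losses of 12.5 to 25.8 points.

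Over the whole loci, all 124 bACE-seq regions were lower in Tet tcKO (100% of the genome's regions to 3 digits, 592697 of 592906), and 178 of 182 WGBS regions were higher, or 97.8% against 98.6% of all WGBS regions. A share this near the background is no result about the members. All 4 loci held a 5hmC loss and a WGBS gain, as did 88.8% and 76.2% of gene loci. Averaged over the regions, weighted by CpGs, 5hmC went from 23.9% to 6.14%, a change of -17.8 points with 25.7% kept. The mean WGBS level went from 55.0% to 72.7%, a change of 17.7 points. The change was 10.8 points without Gse1, whose locus holds 145 of the 178 WGBS gains. That lower value includes the WGBS losses at Fignl2. Gains alone averaged 15.7 points at Fignl2, 14.6 points at Egln1 and 9.73 points at Gins2.

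The 4 loci were covered by 5hmC losses to a like extent. A 5hmC loss held 81.2% of the 6828 CpGs of the Gse1 locus, 76.2% of 471 at Gins2, 74.4% of 1016 at Fignl2 and 73.6% of 1032 at Egln1, against a median of 36.6% over all gene loci. These shares lay above those of 97.8%, 96.0%, 95.2% and 94.8% of gene loci. They include the regions the members were chosen by, with 423 of the 760 CpGs in a loss at Egln1. High shares therefore follow in part from the choice. With no flank, a 5hmC loss held 70.3% of the Gins2 CpGs. WGBS gains held 40.5% of CpGs at Gse1, 34.2% at Gins2, 30.4% at Fignl2 and 23.2% at Egln1, against a median of 6.44%. These shares lay above 98.7%, 97.6%, 96.4% and 92.1% of gene loci. Of the 161 CpGs in a WGBS gain at Gins2, 99 lie in the flank it shares with Gse1. The Gins2 share in a WGBS gain was 22.5% with no flank and 14.9% with differences of at least 10 points. CpGs outside the listed regions have no value in these data.

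**Figure D2:**
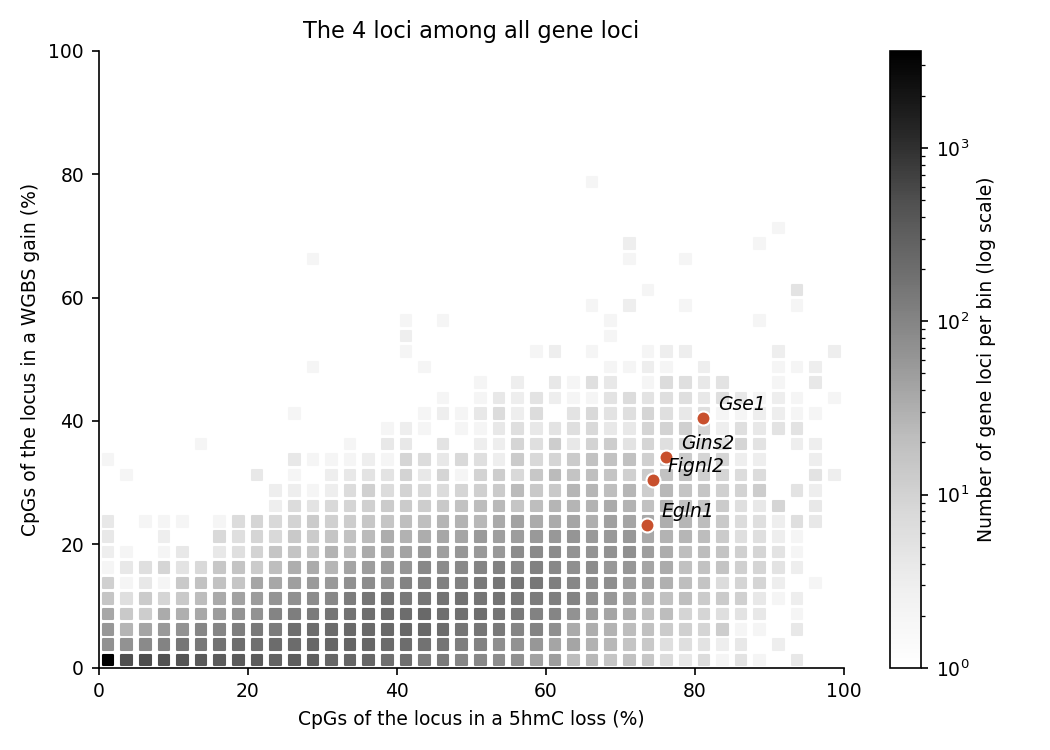
Share of each locus' CpGs inside a 5hmC loss (x axis, %) and inside a WGBS gain (y axis, %) for all 32093 gene loci, as bins shaded by the number of loci, with the 4 members as red points. The members sit at 73.6 to 81.2% on the x axis and 23.2 to 40.5% on the y axis, where few loci lie.

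The level of 5hmC differed more between the members than the share kept. The CpG-weighted Cre- mean was 25.5% at Egln1, 24.6% at Gse1, 23.2% at Gins2 and 18.2% at Fignl2, against a median of 14.6% over gene loci with a 5hmC loss. In Tet tcKO it was 6.02%, 6.41%, 5.68% and 4.56%. The change was therefore -19.4 points at Egln1 and -13.6 points at Fignl2, the widest and narrowest of the 4, while the share kept ran only from 23.7% at Egln1 to 26.1% at Gse1, with 24.5% at Gins2 and 25.1% at Fignl2. The change at Fignl2 was not among the deep ones. Of the gene loci with a 5hmC loss, 24.0% showed a lower value, against 2.67% for Egln1. The Gins2 values rest mainly on the region shared with Gse1, which entered with all its 509 CpGs. The other Gins2 losses held 58, 39 and 6 CpGs, at 12.9%, 20.5% and 10.5% in Cre-. With 1 mean per group, the order of the members could not be set against replicate error.

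**Figure D3:**
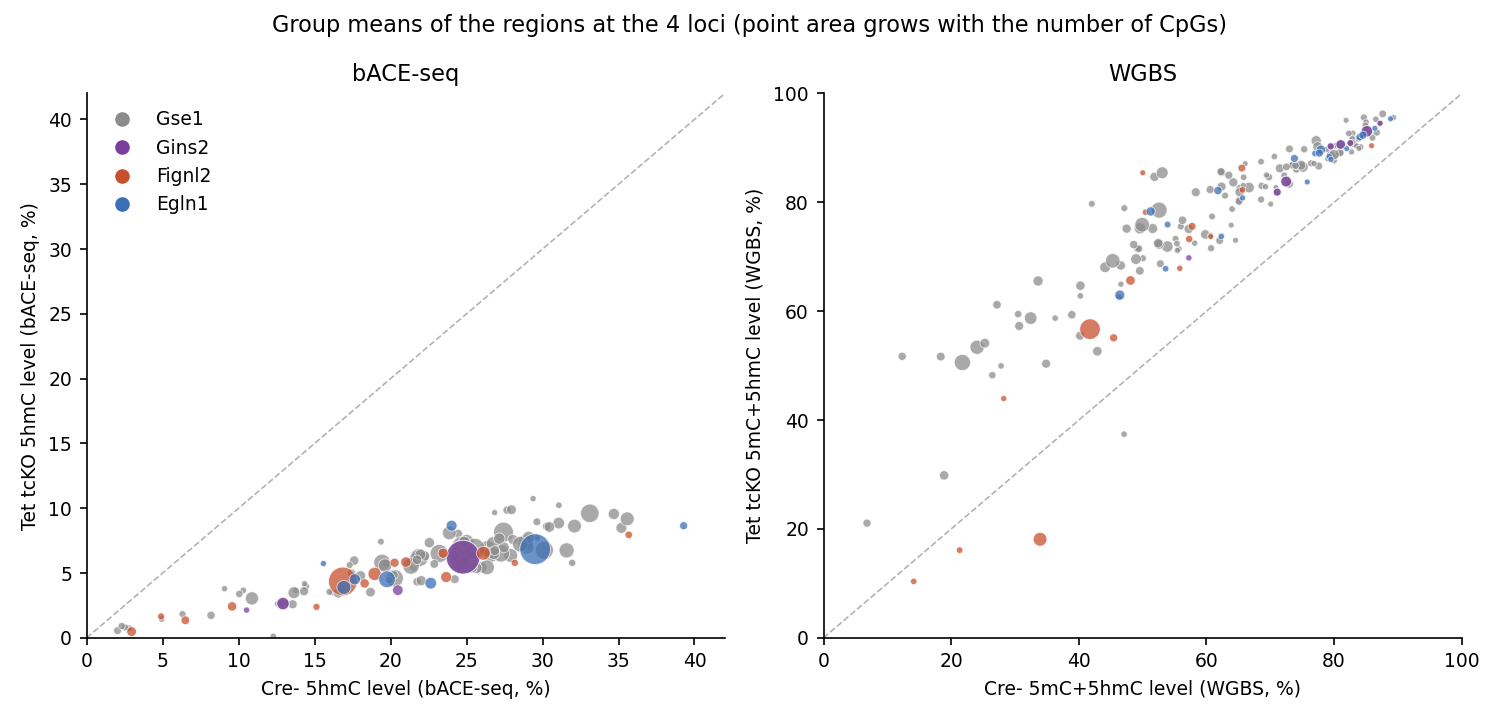
Tet tcKO level (y axis, %) against Cre- level (x axis, %) of every region at the 4 loci, for bACE-seq (left) and WGBS (right), coloured by member, with the line of equal levels dashed. All 5hmC points lie below the line in a narrow band, and the WGBS points lie above it except 4, of which 3 belong to Fignl2.

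Gse1 is the largest of the members, a chromatin corepressor gene on the plus strand (ENSMUSG00000031822.20, chr8:120228456-120581390), with 99 5hmC losses and 146 WGBS regions. Its upstream bound rests on the single transcript Gse1-206, and the other coding transcripts start at 120488447, 120535857 and 120537429. Cre- levels of its 5hmC losses ran from 2.03% to 35.6% with a median of 23.9%, and Tet tcKO levels from 0.121% to 10.7% with a median of 6.08%. The locus ranked 14 of all gene loci by number of WGBS gains, and 99.8% of gene loci held fewer CpGs.

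Along Gse1, 5hmC loss was close to continuous except around the start sites. When the gene was divided into 10 equal parts from 5′ to 3′, losses held 87.3 to 95.6% of CpGs in parts 2 to 7 and 90.5% in part 10. They held 72.4% in part 1, 52.7% in part 8 and 61.5% in part 9, the parts with the start sites. Where a loss was listed, the Cre- level stayed between 20.7% in part 1 and 27.0% in part 6, with 24.5 to 27.1% kept in all 10 parts.

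Averaged over the same parts, the WGBS gains at Gse1 were wider in parts 8 and 9, which hold the downstream start sites. There the mean level went from 35.5% to 60.7% and from 45.4% to 70.5%, the first a rise of 25.2 points, against 15.2 to 21.9 points in parts 1 to 7 and 10. Single gains did not follow this order, and the widest rise at Gse1 (39.4 points, picked out after its values were seen) lay in part 7, 15831 bp from the nearest start. The Gse1 gain with the largest area statistic lay in part 8 (chr8:120489904-120496109, 109 CpGs), 1457 bp beyond the start of Gse1-201, at 21.8% in Cre- and 50.6% in Tet tcKO, and ranked 81 of 191164 gains. The gain nearest to a start site (chr8:120534316-120535001, 13 CpGs) ended 856 bp before Gse1-203 and went from 26.4% to 48.3%.

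Single regions of Gse1 showed the extremes. The highest Cre- level, 35.6%, was in an intron (chr8:120543730-120548347, 77 CpGs), where 9.18% was left. The largest share kept among losses of at least 10 CpGs was 39.4%, in 12 CpGs that end 6 bp before the start of Gse1-203, where the levels were 2.30% and 0.907%. Both levels are near the 1 or 2 points of unconverted signal subtracted as alternatives, so this share is uncertain. The smallest share kept was 18.1%, in 12 intronic CpGs at chr8:120323678-120324765, from 32.0% to 5.78%. A WGBS region of 7 CpGs (chr8:120476900-120477042) went against the rest, from 47.1% to 37.4%, and lay inside a 5hmC loss of 25.5% to 6.85%. Of the 145 gains, 144 overlapped a 5hmC loss, and the exception, named after its values were seen, was an intronic gain at chr8:120564054-120564715 that went from 6.81% to 21.1%. With 81.2% of the CpGs of the locus in a 5hmC loss, few gains could miss one. The share over all WGBS gains is not given here, so the overlap is no result about Gse1.

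Gins2, the replicative helicase gene, lies tail to tail with Gse1 on the minus strand (ENSMUSG00000031821.11, chr8:120578633-120589304), and the last stretches of the genes overlap. The readthrough gene Gm20388 spans both. Gins2 shared the leading region, of which 71 CpGs lie in its 3′ UTR, 32 in its introns, 8 in its coding sequence and 398 beyond its 3′ end. Seen from Gse1, 173 of the same 509 CpGs are coding, 218 intronic, 64 in the 3′ UTR, 6 in other exons and 48 downstream. The remaining Gins2 losses were shallower: 12.9% to 2.64% over 58 CpGs at chr8:120584334-120586800, 10.5% to 2.14% over 6 CpGs at chr8:120587724-120588023, and 20.5% to 3.68% over 39 CpGs upstream, at chr8:120590275-120593974, where Gm10614 also lies.

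The listed 5hmC level was higher over the 3′ part of Gins2 than over its 5′ part. The 3′ value is the mean of the shared region, of which 398 of 509 CpGs lie beyond the gene. The 3′ part of Gins2 itself has no separate level. With the gene divided in the same way, parts 6 to 10 lay in the shared region at 24.8%, parts 3 to 5 were at 12.9%, part 2 was at 10.5% with 35.3% of its CpGs listed, and part 1 held none. WGBS levels were high in Cre-, at 57.2 to 87.2%, and 69.8 to 94.5% in Tet tcKO over 8 gains. The CpG-weighted mean went from 78.4% to 88.1%, a change of 9.73 points, above only 9.45% of gene loci with a gain. The Gins2 gain with the largest area statistic (chr8:120577553-120578713, 47 CpGs) went from 85.1% to 93.1%, and the gain nearest to its start lay 4073 bp upstream, at 57.2% and 69.8%.

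**Figure D4:**
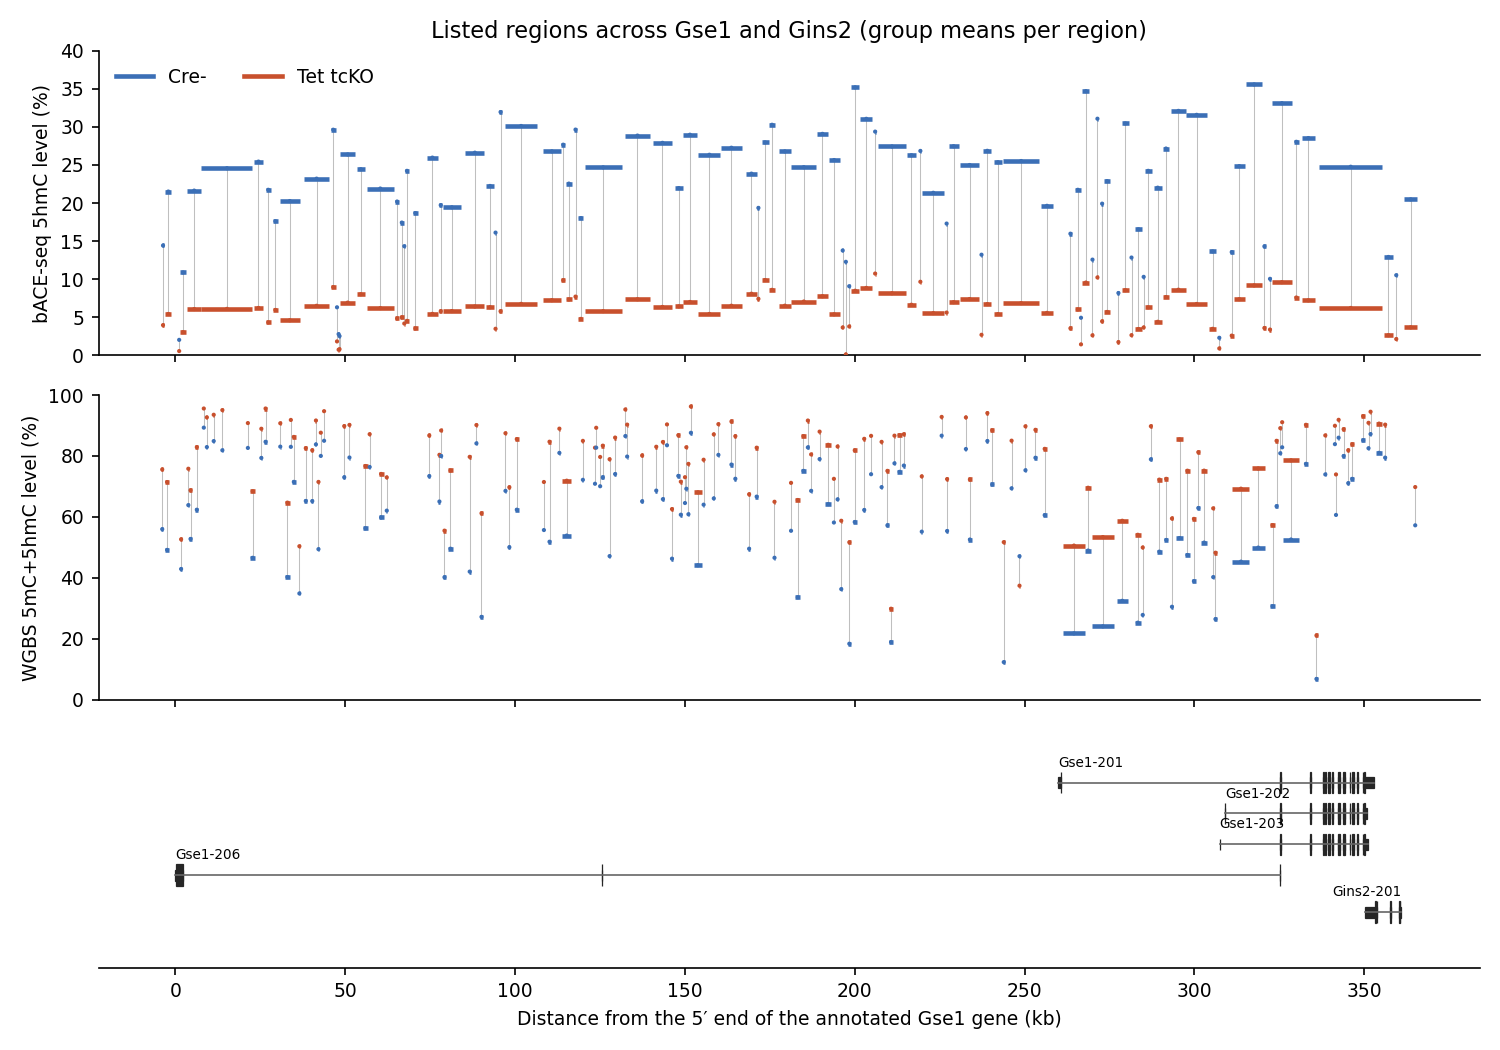
Group-mean 5hmC level (top, bACE-seq, %) and 5mC+5hmC level (middle, WGBS, %) of each listed region against distance from the 5′ end of Gse1 (kb), with Cre- in blue and Tet tcKO in red and bars drawn to the length of the region. The coding transcripts are drawn below, coding exons thick, and the widest bar at the right of the top panel is the shared region, at 24.8% and 6.22%.

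Fignl2, the fidgetin-like ATPase gene (ENSMUSG00000095440.2, chr15:101050194-101078567, minus strand), has its whole coding sequence in its last exon, and that coding sequence lay inside the leading 5hmC loss. All 249 CpGs of the coding sequence, at 12.9 CpGs per 100 bp, lay in it, along with 35 CpGs of the 3′ UTR and 81 of the intron. The annotated start of the short transcript Fignl2-201, which is also the first base of its coding sequence, lies inside the loss, with 60 of the 60 CpGs within 500 bp. A WGBS gain of 181 CpGs (chr15:101053005-101054255) lay wholly within the coding sequence, with 41.8% in Cre- and 56.7% in Tet tcKO. It ranked 21 of 191164 gains by area statistic and 18 by number of CpGs, and the printed Fignl2 window lies inside it.

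The 15 5hmC losses at Fignl2 ran from 2.96% to 35.7% in Cre- and from 0.480% to 7.95% in Tet tcKO. The highest Cre- level was in 14 intronic CpGs (chr15:101069184-101069890), with 22.3% kept. The largest share kept, 33.8%, was in 10 CpGs at chr15:101077355-101077451, at 4.90% and 1.66%, and the smallest, 15.8%, at chr15:101066881-101067956, at 15.1% and 2.39%. The Tet tcKO levels of both are near the 1 or 2 points of unconverted signal subtracted as alternatives, so these shares are uncertain. Scn8a, a sodium channel gene, shares the last pair of losses downstream, at 9.57% to 2.43% and 18.3% to 4.20%.

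Fignl2 also held 3 of the 4 regions with a lower WGBS level in the knockout, a kind of region that 4.35% of all gene loci hold. The main one (chr15:101076035-101077998, 75 CpGs) began 569 bp downstream of the Fignl2-202 start, in the intron, and went from 33.9% to 18.1%, ranking 16 of 2672 WGBS losses. Shorter ones downstream of the gene, in Gm47841, went from 21.3% to 16.1% over 8 CpGs and from 14.1% to 10.4% over 7. Because of these, the mean WGBS change over all Fignl2 regions was 9.04 points and that over its 13 gains alone was 15.7 points.

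Most of the 5hmC losses listed at that main WGBS loss had low levels, and part of its length had no listed 5hmC level. The 5hmC losses within it or over its upstream edge were at 2.96% and 0.480% over 31 CpGs, 4.90% and 1.66% over 10 CpGs, and 6.49% and 1.36% over 22 CpGs, in Cre- and Tet tcKO. Their changes went down to at most -5.14 points, against a WGBS change of -15.8 points. A broader 5hmC loss at 26.1% and 6.53% (chr15:101070329-101076350) overlaps its downstream edge. The gain nearest to Fignl2-202 lay upstream (chr15:101079160-101079529, 18 CpGs), at 45.5% and 55.1%.

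Egln1, the oxygen-sensing hydroxylase gene (ENSMUSG00000031987.6, chr8:124908587-124949324, minus strand), had the deepest mean loss of the 4, with 586 of its 760 CpGs in a 5hmC loss intronic. The leading region held only intron CpGs. A 5hmC loss held 586 of 625 intron CpGs and all 54 CpGs of the 3′ UTR, against 13 of 112 coding CpGs. The highest Cre- level of any region at the 4 loci, 39.3%, was in 18 CpGs at chr8:124944791-124945734, where 8.65% was left. The neighbouring region towards the start (chr8:124946081-124947279, 43 CpGs) had 24.0% and 8.65%, the largest share kept at Egln1 among losses of at least 10 CpGs, at 36.0%. The smallest, 18.6%, lay upstream of the start (chr8:124950242-124953893, 51 CpGs), at 22.6% and 4.22%.

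All 19 WGBS regions at Egln1 were higher in Tet tcKO, at 46.4 to 88.8% in Cre- and 63.0 to 95.4% in Tet tcKO. They were short, with a median of 356 bp against 3218 bp for the 5hmC losses of the locus, and the leading region overlapped 13 of them, covering 29.8% of its CpGs. The gain with the largest area statistic (chr8:124943372-124944658, 27 CpGs) lay at the upstream edge of the leading region and went from 51.3% to 78.3%. The gain nearest to the start (chr8:124949933-124951601, 34 CpGs) lay 609 bp upstream and went from 46.4% to 63.0%. Sprtn, which encodes a protease for DNA-protein crosslinks, shares the last 5hmC loss downstream, at 17.6% and 4.52%.

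**Figure D5:**
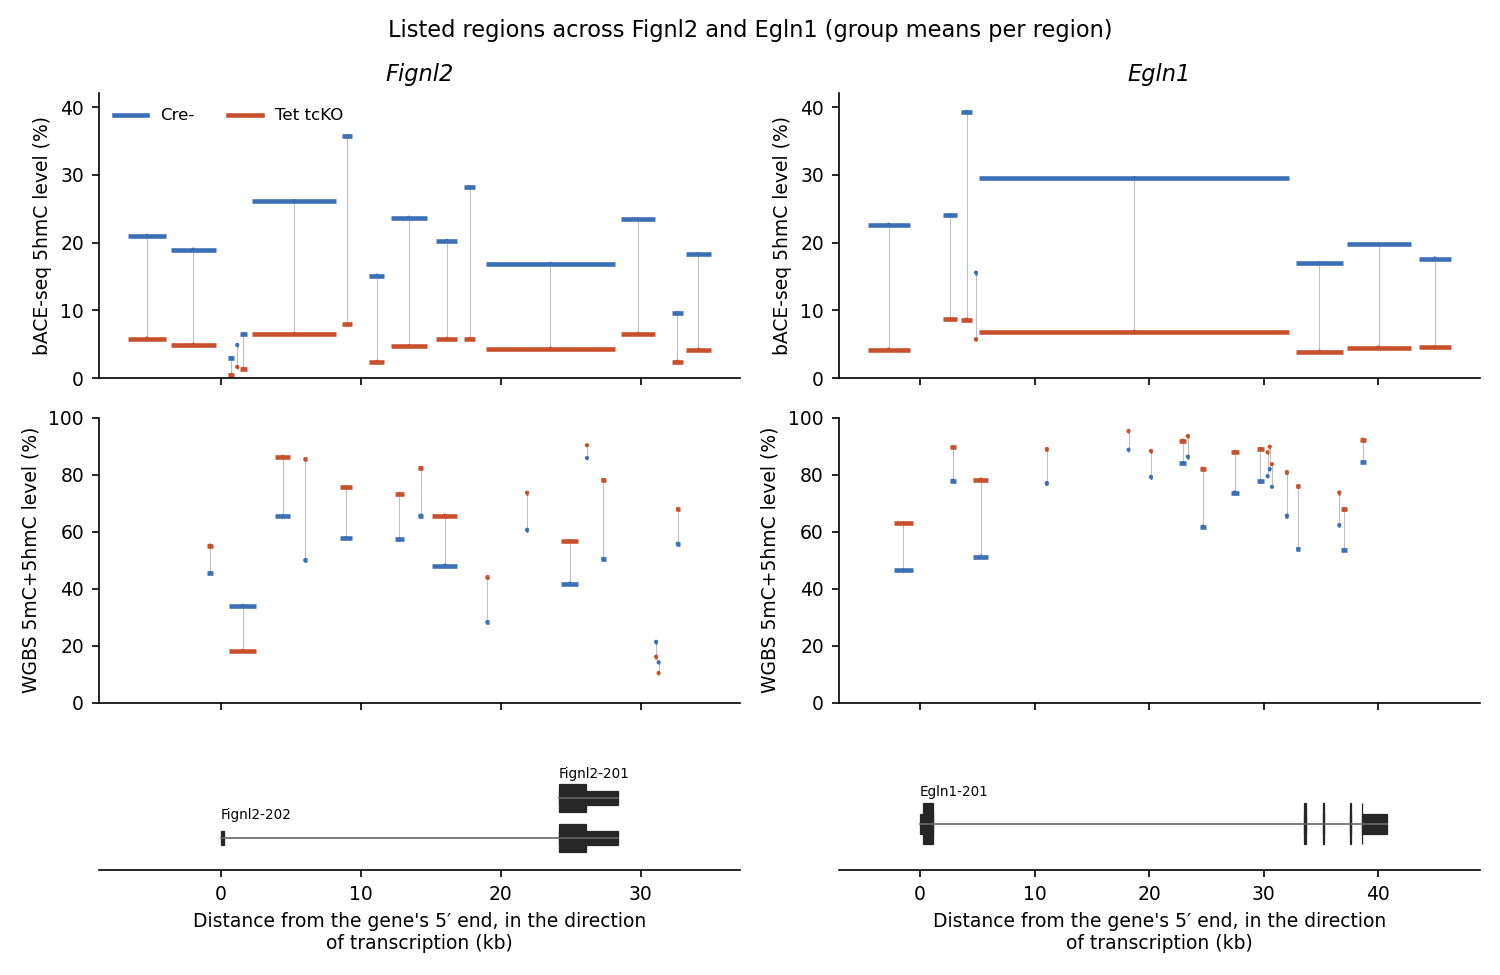
Group-mean 5hmC level (top, bACE-seq, %) and 5mC+5hmC level (middle, WGBS, %) of each listed region of Fignl2 (left) and Egln1 (right) against distance from the 5′ end of the gene in the direction of transcription (kb), with Cre- in blue, Tet tcKO in red and coding transcripts below. The WGBS level of the Fignl2 region just after 0 kb is lower in Tet tcKO (33.9% to 18.1%), and the Egln1 intron is filled by a region at 29.5% and 6.84%.

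The annotated start sites held few listed CpGs, as start sites do over the genome, where a 5hmC loss held 3.92% of the CpGs within 500 bp of CpG-dense starts. None of the 230 CpGs in 5′ UTRs of the members lay in a 5hmC loss, namely 121 at Gse1, 54 at Egln1, 28 at Fignl2 and 27 at Gins2. None of the 4 gene starts lay in a loss, as 17.8% of all gene starts did and 2.59% of the 10732 CpG-dense starts (at least 50 CpGs within 500 bp), and 67.1% of the latter had no such CpG in a loss. The members' starts are therefore near the background. The stretch without a 5hmC loss around the Egln1 start was 2962 bp long and held 264 CpGs. At Gse1 such stretches around the starts of Gse1-202 and Gse1-203 and of Gse1-201 held 273 and 252 CpGs. The exception was the internal annotated start of Fignl2-201, covered as described. The coding sequence of that transcript begins at its first base, so no 5′ UTR is annotated for it. Whether transcription starts there was not tested.

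Both marks were set side by side over the WGBS gains that overlapped a 5hmC loss, so the direction of each was fixed by the selection. Over these gains, WGBS went from 55.9% to 75.2% at Gse1 and 5hmC from 25.7% to 6.79%. At Fignl2 WGBS went from 47.0% to 62.7% and 5hmC from 19.2% to 4.83%, and at Egln1 from 67.7% to 82.3% and from 25.9% to 6.23%. At Gins2 WGBS went from 78.4% to 88.1% and 5hmC from 23.8% to 5.89%. WGBS minus 5hmC, a rough level of 5mC, was thus 30.2% and 68.4% at Gse1, 27.8% and 57.9% at Fignl2, 41.8% and 76.0% at Egln1, and 54.5% and 82.2% at Gins2 in Cre- and Tet tcKO. The marks come from separate libraries averaged over regions of different extent.

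Overlap with a WGBS gain was frequent and went with length. Of the 124 5hmC losses, 91 (73.4%) overlapped a gain, against 24.1% of all 5hmC losses, but their median length was 2052 bp against 521 bp. Of the 25 member losses of 5 kb or more (20.2%, against 0.676% of all losses), 25 overlapped a gain, and so did 92.0% of all 4004 losses of that length. When at least 50% of the loss had to be covered, the share was 27.4%.

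Levels also varied with CpG density as they did elsewhere. Over the 124 5hmC losses, Spearman's rho between CpGs per 100 bp and the Cre- level was -0.49, and -0.48 over all 592697. With the share kept it was 0.24 at the members and 0.24 over all losses. The regions share libraries and base composition, and no test was made.

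Genes of the members' pathways were covered by 5hmC losses less than the members, with an exception. Of 11 CoREST-HDAC genes, 11 held a 5hmC loss and 11 a WGBS gain, with a median of 50.9% of CpGs in a loss, from 25.5% at Zmym3 to 66.7% at Rcor1, a CoREST scaffold, against 81.2% at Gse1. Of 10 GINS and helicase genes, 10 held a loss and 8 a gain, with a median of 25.1%, from 5.96% at Mcm4 to 47.5% at Mcm2, both helicase subunits, against 76.2% at Gins2. Of 8 related AAA ATPase genes, 8 held both, with a median of 37.9%, from 13.1% at Fignl1 to 65.5% at Katnal1, a katanin-like gene, against 74.4% at Fignl2. Of 9 oxygen-sensing genes, 9 held a loss and 8 a gain, with a median of 48.9%, from 28.2% at Hif3a to 77.3% at Epas1, both HIF alpha genes, and Epas1 stood above the 73.6% of Egln1. Over all gene loci the median was 36.6%, and 88.8% held a loss and 76.2% a gain. The counts in each list lie above those shares. The lists hold only 8 to 11 genes and were not matched for locus size, so no difference is read from the counts. The members were chosen for their 5hmC losses and these genes were not, so the comparison describes the choice.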

How the data were processed

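WGBS and bACE-seq were made from whole P21 retina, 3 libraries per group. Per the labels and the published methods, reads were trimmed by the authors (Trim Galore 0.4.4), aligned to mm10 (Bismark 0.18.2), filtered (SAMtools 1.15.1) and freed of duplicates (GATK 4.1.3). Calls were extracted with MethylDackel 0.6.1 and regions called with smoothing in DSS. The deposited lists give for each region the group mean as a fraction, printed here as a percent, the count of CpGs and an area score, used only to rank regions. The authors' difference column was not used. The group order follows the list names (Cre-, then Tet tcKO). No read depth, replicate value or conversion rate per library is in these lists, so no test was run.

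Regions were joined to GENCODE M21 genes (GRCm38) with 5 kb flanks (overlap of at least 1 bp) in Python 3.11.15 with pandas 2.3.3. Locus means were weighted by CpGs, counting each overlapping region in full. The locus measures were tested on simulated data. The members, the gene lists and the regions named were chosen with earlier results of these data known. Named were the members, genes sharing a region with them, each member's regions with the largest absolute area statistic, nearest a start site, with the highest Cre- level and the largest and smallest share kept (at least 10 CpGs), regions against the main direction, the pathway genes with most and least CpGs covered, and the next 3 regions by area. Alternatives were no flank, a 2 kb flank, at least 10 CpGs, a difference of at least 10 points, midpoint within the locus, other weights, and subtraction of unconverted signal.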

Additional observations from a re-analysis of the deposited data

How the results depend on the processing

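The loci were read from group means over regions the authors had already called. These means carry neither depth nor spread, an unlisted CpG has no value, and smoothing spreads a level over its neighbours. No library could be left out. No paired analysis was possible because the columns are group means. The ranks of the leading regions depend on the measure. By difference in level they fall from ranks 1, 2 and 3 to 51783, 210868 and 17446. By area statistic per CpG they fall to 1308, 459 and 3109, of 592697 losses. No direction reversed under any alternative, but this is no test of the directions. All 124 bACE-seq regions were lower in Tet tcKO. The alternatives only select or reweight these regions, or subtract the same amount from both groups, so the bACE-seq direction could not reverse. With 178 of 182 WGBS regions higher, there was little room for a reversal in WGBS.

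With no flank, the mean 5hmC change over the 4 loci was -18.0 points, the mean WGBS change 17.8 points, the share of CpGs in a 5hmC loss 80.8% and that in a WGBS gain 38.4%. With a 2 kb flank the changes were -17.9 and 17.8 points and the share of 5hmC kept 25.6%. With regions of at least 10 CpGs, 106 WGBS regions were left, the changes were -17.9 and 18.5 points, the share kept 25.6%, and the CpG shares 77.4% and 31.9%. With differences of at least 10 points the changes were -18.3 and 19.4 points, the share kept 25.6%, and the CpG shares 75.5% and 31.4%. Weighting by length gave -18.5 and 19.4 points and 25.4% kept, and counting bases gave 82.4% and 30.3%. Requiring 50% overlap lowered the share of 5hmC losses on a WGBS gain from 73.4% to 27.4%. Subtracting 1 or 2 points of unconverted signal from both groups lowered the share kept from 25.7% to 22.4% and 18.9%. Without Gse1 (a setting chosen after seeing the data) these changes were -16.8 and 10.8 points, 24.3% was kept, and the CpG shares were 74.4% and 28.1%.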
